A study of Caenorhabditis elegans with 2 samples.

Results

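The X chromosome of Caenorhabditis elegans carried 240 of the 994 optimal binding regions (peaks) of the nuclear hormone receptor NHR-10, and these 240 peaks are described here against the 754 on the 5 autosomes. They were taken by chromosome name alone, without use of their signal, from the deposited ce11 list of optimal peaks. That list had passed a threshold on the irreproducible discovery rate (IDR), a measure of agreement between replicates. Its peaks were the regions of highest signal called on both replicates together, so X and autosomal peaks alike were selected by signal. The data came from chromatin immunoprecipitation with sequencing (ChIP-seq) against eGFP in whole L4 larvae of mixed sex. All animals were of strain OP239, with the genotype unc-119(ed3) III and the transgene wgIs239, which adds an eGFP-tagged nhr-10 to the worm. There was 1 group of 2 biological replicates, each with 1 technical replicate and a fragment size of 150 to 350 bp, and every list was derived with 1 control alignment that the replicates share. No second condition or untagged strain was analysed here, and whole animals mix all tissues, so the tissue of a site cannot be told.

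Nuclear hormone receptors are transcription factors that bind DNA through zinc fingers and often respond to small lipophilic or metabolic ligands. NHR-10 is known, together with NHR-68, for switching on the propionate shunt, a breakdown route for propionate used when vitamin B12 is scarce. The X chromosome is present as a pair in hermaphrodites and as a single copy in males. In hermaphrodites a dosage compensation complex is recruited to X at sites called rex, which bear a short sequence called MEX, and lowers transcription of X-linked genes.

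The first set of sequences below comes from X peaks that held the core of MEX, and is shown because no autosomal peak held this sequence so close to its summit. The core was searched as GCGCAGGG on both strands (CCCTGCGC on the other strand) within 50 bp of each summit, the base of highest signal. Capitals mark each exact core. All sequences are the plus strand of the RefSeq reference genome in ce11 (WBcel235) and are named by the gene that holds the site or has the nearest protein-coding transcript start.
mom-1 intron (chrX:6296483-6296583): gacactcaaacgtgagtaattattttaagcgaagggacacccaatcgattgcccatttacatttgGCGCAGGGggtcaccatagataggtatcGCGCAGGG
W02H3.3 site (chrX:11094136-11094236): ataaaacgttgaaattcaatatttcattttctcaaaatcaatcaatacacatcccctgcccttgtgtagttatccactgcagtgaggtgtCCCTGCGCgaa
F20B6.9 site (chrX:4209215-4209315): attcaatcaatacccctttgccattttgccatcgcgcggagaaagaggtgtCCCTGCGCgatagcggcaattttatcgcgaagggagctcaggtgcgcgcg
xol-1 site (chrX:8036398-8036498): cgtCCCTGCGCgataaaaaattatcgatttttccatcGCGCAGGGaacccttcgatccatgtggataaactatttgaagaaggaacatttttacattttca
nspc-17 promoter (chrX:14525863-14525963): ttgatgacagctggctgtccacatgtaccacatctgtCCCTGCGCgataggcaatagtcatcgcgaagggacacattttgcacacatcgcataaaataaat
The mom-1 and xol-1 windows each held 2 cores, and the other 3 windows each held 1.

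Other strong X peaks had no exact core. The second set shows the windows of 3 of the 5 strongest X peaks, with capitals on the best match to the core, which differed from it at 1 base. The fourth window, upstream of epn-1, is shown as a contrast, since its best match differed at 2 bases and nothing in it is capitalised.
ZK899.6 site (chrX:9465815-9465915): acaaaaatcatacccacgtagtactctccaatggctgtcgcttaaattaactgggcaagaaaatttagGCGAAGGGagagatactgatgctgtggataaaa
K02D3.1 site (chrX:13700841-13700941): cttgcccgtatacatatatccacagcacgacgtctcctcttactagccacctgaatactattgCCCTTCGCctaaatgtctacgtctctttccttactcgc
F22H10.2 site (chrX:16682056-16682156): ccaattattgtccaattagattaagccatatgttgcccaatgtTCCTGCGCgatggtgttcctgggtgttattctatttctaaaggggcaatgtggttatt
epn-1 promoter (chrX:14818902-14819002): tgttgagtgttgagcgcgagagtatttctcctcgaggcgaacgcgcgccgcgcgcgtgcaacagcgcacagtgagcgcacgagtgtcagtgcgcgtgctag

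X held more optimal peaks than its length would give. The 240 X peaks were 24.1% of all peaks (95% Clopper-Pearson interval 21.5 to 26.9%), whereas X makes up 17.7% of the sequence of the 6 chromosomes (exact two-sided binomial test, p = 2.876e-07). This came to 13.5 peaks per Mb on X against 9.13 on the autosomes, where single chromosomes ranged from 7.41 on V to 11.5 on III. X was less dense in genes, with 154.1 protein-coding genes per Mb against 208.9. Intervals and p-values over peaks describe the lists of these 2 libraries and not variation between animals, and neighbouring peaks are not independent.

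The longer list of regions called on both replicates together, which includes background, was itself denser on X. It held 212 regions per Mb on X against 166 on the autosomes, and X carried 21.5% of it, so that the X share of optimal peaks was 2.62 percentage points above that of the pooled list (exact two-sided binomial test, p = 0.04896). Of all pooled regions 5.70% were optimal peaks, and this share was 6.39% on X and 5.51% on autosomes. Counting every pooled region that overlapped an optimal peak, the shares were 8.60% of 3755 on X and 7.26% of 13690 on autosomes (Fisher's exact test, adjusted p = 0.0177 over 19 comparisons of X with autosomes). That call was lost, by the same exact test, without the peaks holding a MEX core (adjusted p = 0.09816) and without the 20 strongest optimal peaks (adjusted p = 0.1071).

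The strongest sites were gathered on X. By the signal of the pooled list, which the authors gave and whose scale is not stated, 7 of the 10 strongest optimal peaks and 13 of the 20 strongest lay on X. The X share then fell to 42% of the 50 strongest, 30.5% of the 200 strongest and 25.8% of the upper 497. Each replicate list gave the same share at the top, with 12 X regions among the 20 strongest of replicate 1 and 12 among those of replicate 2. Among the highest 10% of optimal signals were 37 X peaks (15.4%) and 62 autosomal peaks (8.22%), an odds ratio of 2.03 (Fisher's exact test, adjusted p = 0.01186). With the 20 strongest peaks left out the shares were 12.3% and 9.24% (Fisher's exact test, adjusted p = 0.3778), and without the MEX peaks 14.4% and 8.62% (adjusted p = 0.0724). The 20 were removed by the same signal that is compared here, and 13 of them were X peaks. The MEX peaks were all on X, with a median signal of 228.7. Both removals thus take strong peaks mostly or only from X, so a smaller difference follows from the choice itself. Signals above the median of all optimal peaks were found in 53.3% of X peaks and 48.9% of autosomal peaks, a difference that did not pass (Fisher's exact test, adjusted p = 0.3891). The median signal was 65.8 on X (quartiles 56.0 and 90.5) and 63.5 on autosomes (quartiles 54.8 and 81.8).

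**Figure D1:**
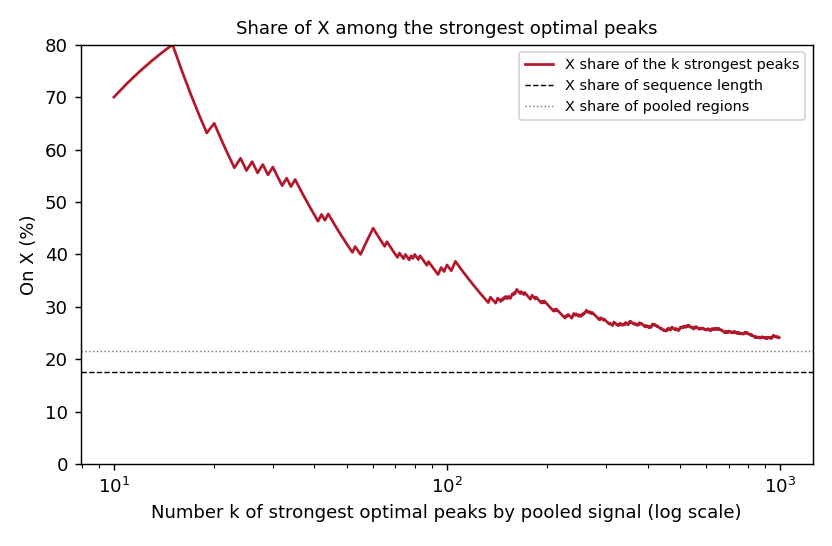
Share of X among the k strongest optimal peaks (y axis, %) against k on a log scale (x axis), with the X share of sequence length (dashed) and of the pooled list (dotted). The solid line passes 70% at 10 peaks and 42% at 50 peaks and ends at 24.1% for all peaks, above both reference lines at 17.7% and 21.5%.

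The strongest X peak lay in an intron of mom-1, whose product is the worm counterpart of Porcupine, needed for secretion of Wnt proteins. Its signal was 331.6 in the pooled list, 163.1 in replicate 1 and 157.8 in replicate 2, and it ranked 3 in both replicates. Its nearest protein-coding start was that of cest-16, a carboxylesterase gene, 3409 bp away. The next site lay between convergent genes, 4000 bp from the start of W02H3.3, with a pooled signal of 320.2 and ranks of 2 and 6. These sites, like the next 3, were in no promoter window, which reached here from 1000 bp before to 200 bp after the start of any protein-coding transcript.

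The peak nearest to ZK899.6, at 2520 bp, had signals of 133.4 and 140.1 in replicates 1 and 2. The peak 6016 bp upstream of K02D3.1 had signals of 100.2 and 174.6, which put it at rank 20 in replicate 1 and rank 1 in replicate 2. At F22H10.2, 2566 bp from the start, the signals were 116.6 and 146.5. The replicates thus put all of the 5 strongest X peaks within their 20 strongest regions, in a different order. A peak 1780 bp upstream of F20B6.9 followed, with signals of 137.6 and 126.9.

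The seventh X peak was the only X peak whose nearest start belonged to a gene on the list of dosage compensation and sex determination genes. It lay 4865 bp upstream of xol-1, the switch gene that sets male development when active and is repressed in hermaphrodites. Its signal was 254.1 in the pooled list, 110.0 in replicate 1 and 144.1 in replicate 2, with ranks of 14 and 7. None of the 6 X-linked genes of that list had a peak summit within its promoter window. The summit nearest to sdc-2, a gene needed to bring the dosage compensation complex to X, was 7160 bp away with a signal of 78.0. For sex-1, fox-1, ceh-39 and sdc-1 the nearest summits were 16644, 36194, 53433 and 65848 bp away, with signals between 55.4 and 66.8.

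The remaining 13 of the 20 strongest X peaks had pooled signals from 148.2 to 249. Those nearest to T27A8.7, F55G7.5, gtr-1, F19H6.5, bcat-1 and sdz-19 were intergenic and in no promoter window, at 1058, 1394, 3895, 1702, 4996 and 2258 bp from the start. The bcat-1 gene encodes a branched-chain amino acid aminotransferase. The peak nearest to fbxb-58, an F-box gene, missed the promoter window by little, at 1029 bp upstream. In an intron of Y41G9A.17 a peak ranked 32 in replicate 1 and 11 in replicate 2. A peak in a coding exon of pks-1, which encodes a polyketide synthase, had the longest distance to a start of all X peaks, 15189 bp to C41A3.2. The other 4 were promoter peaks and are described with that class.

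All 240 X peaks and 752 of 754 autosomal peaks had a region in both replicate lists. The optimal list was cut on agreement between replicates, and the replicate lists were long, with 21319 and 22317 regions. Such presence was therefore largely fixed beforehand. Peaks that overlap each other can also share a replicate region, as 2 peaks at spc-1 did, both with ranks of 123 and 718. An overlap with a region among the 994 strongest of each replicate was found for 139 (57.9%, 95% interval 51.4 to 64.2%). A further 44 overlapped such a region in replicate 1 only, 40 in replicate 2 only and 17 (7.08%) in neither. Among autosomal peaks 398 (52.8%) had such support in both replicates and 37 (4.91%) in neither. The difference in the share supported by both did not pass the threshold (Fisher's exact test, adjusted p = 0.2863, difference 5.13 points). The better rank was in replicate 1 for 119 of 238 X peaks and for 384 of 751 autosomal peaks, a difference of -1.13 points (Fisher's exact test, adjusted p = 0.8092). The summits of the replicates lay within 50 bp of each other at 143 X peaks (59.6%) and at 435 of 752 autosomal peaks (57.8%).

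Both replicates ranked the very strongest X peaks high, and their ranks scattered more widely further down the list. Some fairly strong peaks differed too, such as a peak in an abts-4 intron with a pooled signal of 110.5 and ranks of 41 and 433. The order by pooled signal uses both replicates, so it is not independent of their ranks. Across the 240 X peaks the Spearman correlation of the replicates' signals was 0.43, and across 752 autosomal peaks it was 0.29. These are descriptions over sites that share 1 control alignment and were chosen by pooled signal. The 3 X peaks with the largest rank differences in favour of replicate 1 were a site nearest to C03B1.13, with ranks of 378 and 6817, and 2 sites in introns of lin-14, with ranks of 187 and 3187 and of 436 and 3461. lin-14 encodes a timing regulator of larval development that is a target of the lin-4 miRNA. In favour of replicate 2 were a peak near the start of pab-2, which encodes a poly(A)-binding protein, with ranks of 4249 and 176, a peak at nhr-3 with ranks of 6707 and 305, and a peak nearest to F18G5.6 with ranks of 9627 and 419. At these 6 peaks 1 replicate had a signal of 35.5 to 52.1 and the other 11.2 to 18.1, and each had a pooled signal below 60, in the lower part of the list.

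**Figure D2:**
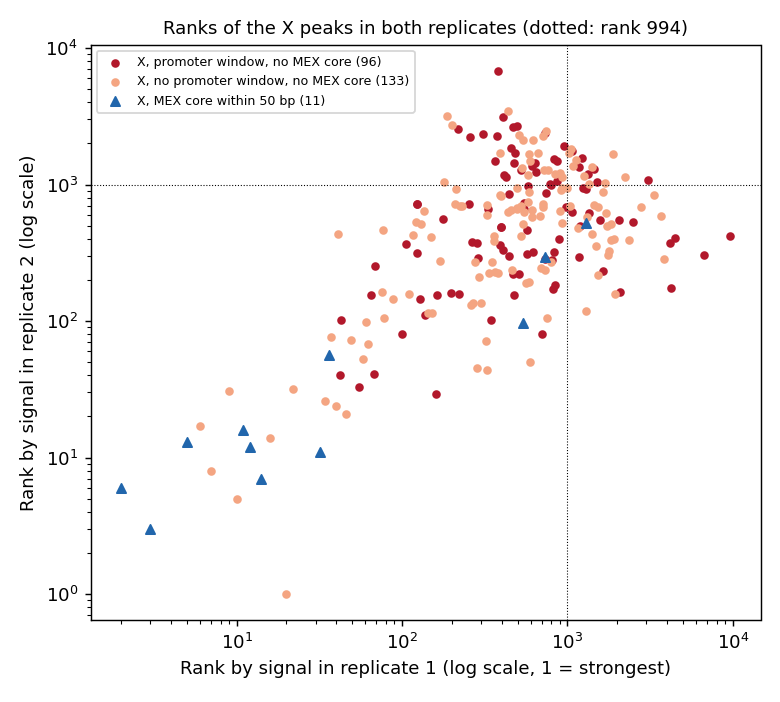
Rank of the best overlapping region in replicate 1 (x axis) and replicate 2 (y axis) for each of the 240 X peaks, both on log scales with 1 as the strongest. Triangles are the 11 peaks with a MEX core, darker points are other peaks in promoter windows and lighter points are other peaks in none. Dotted lines mark rank 994, and 139 X peaks lie below it in both replicates.

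At the edge of the list the pooled signals were nearly continuous. The last 5 X peaks inside it were nearest to atg-2, F46G10.2, nhr-120, nlp-76 and cept-1, with signals of 50.23, 50.18, 49.84, 49.78 and 49.76. The first 5 X regions outside were nearest to F52B10.3, C30E1.4, F17H10.1, R07E3.4 and zfp-3, with signals of 49.59, 49.59, 49.52, 49.34 and 49.12.

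X peaks lay in promoters less often than autosomal peaks. A promoter window held the summit of 98 X peaks (40.8%, 95% interval 34.6 to 47.3%) and of 389 autosomal peaks (51.6%, interval 48.0 to 55.2%), with an odds ratio of 0.648 (Fisher's exact test, adjusted p = 0.01463). The 5 autosomes ranged from 46.9% to 54.4%, so X was below all of them. Promoter windows cover 21.8% of X and 27.1% of the autosomes, which moves in the same direction, and its part in the difference was not tested. By the same exact test the call was lost with a window of 500 bp upstream (adjusted p = 0.1043), without the MEX peaks (adjusted p = 0.0724) and without the 20 strongest peaks (adjusted p = 0.1071), while the difference stayed negative, at -7.06, -9.67 and -8.81 points.

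The X summits lay farther from transcript starts. The median distance from summit to start was 1031.5 bp (quartiles 340.5 and 2529), against 732.5 bp (quartiles 207.8 and 1929.5) on autosomes. Distances above the median of all peaks were found for 138 X peaks (57.5%) and 359 autosomal peaks (47.6%; Fisher's exact test, adjusted p = 0.02233). By the same exact test this call did not hold under 5 alternatives, among them 1 peak per 10 kb (adjusted p = 0.05151) and leaving out the 20 strongest peaks (adjusted p = 0.132). Fewer X summits lay upstream of their nearest start, 142 (59.2%) against 527 (69.9%), with an odds ratio of 0.624 (Fisher's exact test, adjusted p = 0.01251). In the strongest regions of replicate 2 alone, by the same exact test, this difference was -7.83 points (adjusted p = 0.06795), and it also missed the threshold without the MEX peaks (adjusted p = 0.06653) and without the 20 strongest peaks (adjusted p = 0.06039). More than 5 kb from any such start lay 20 X peaks (8.33%) and 29 autosomal peaks (3.85%; Fisher's exact test, adjusted p = 0.01292 over 7 comparisons chosen after the data were seen). X has 154.1 protein-coding genes per Mb against 208.9 on the autosomes, so genes are sparser on X. The part of this in the distances was not tested. For the share of summits upstream of a start no background was counted.

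**Figure D3:**
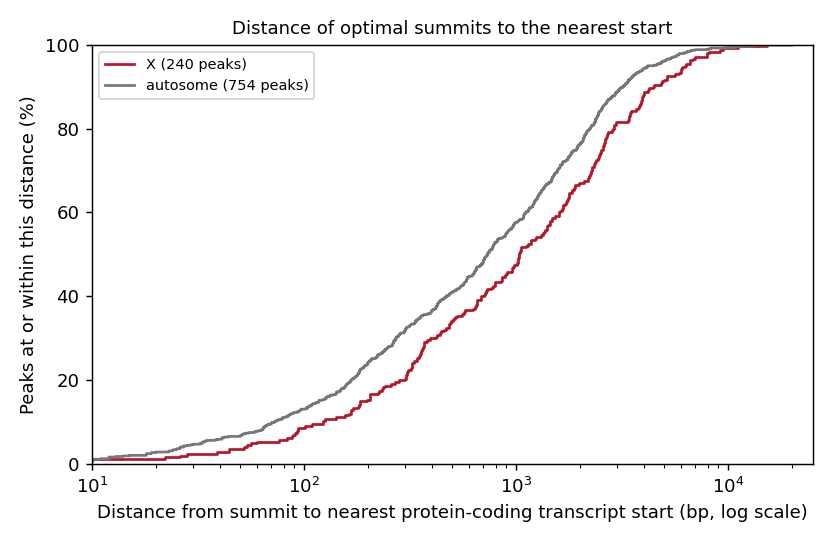
Cumulative share of summits (y axis, %) at or within a distance of the nearest protein-coding transcript start (x axis, bp, log scale) for the 240 X peaks and the 754 autosomal peaks. The X curve runs to the right of the autosomal one, with medians of 1031.5 and 732.5 bp.

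By annotation, 152 X summits (63.3%) were intergenic, 61 (25.4%) intronic, 11 (4.58%) in coding exons, 10 in 3' UTRs and 6 in 5' UTRs. None of these classes differed from autosomes past the threshold. The autosomal shares were 59.4% intergenic, 25.9% intronic, 3.58% in coding exons and 11.01% in UTRs, against 6.67% in UTRs on X (Fisher's exact test, adjusted p = 0.1081 for UTRs). Intergenic sequence makes up 44.5% of X and 35.8% of the autosomes.

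Where the X summits were intergenic, the space around them and the direction of the flanking genes differed, in comparisons chosen after the data were seen. A space longer than the median over these peaks held 96 of the 152 X summits (63.2%) and 204 of the 448 autosomal ones (45.5%; Fisher's exact test, adjusted p = 0.0008246). Intergenic spaces as a whole are longer on X, with a median of 1792.5 bp against 818 bp, and the part of this was not tested. Between genes that point towards each other, where no start adjoins the space, lay 21 X summits (13.8%) and 26 autosomal ones (5.80%; Fisher's exact test, adjusted p = 0.004658). Convergent spaces make up 9.30% of the intergenic bases of X and 11.7% of those of the autosomes, which is the opposite order. Between divergent genes lay 53 X summits (34.9%) and 208 autosomal ones (46.4%; Fisher's exact test, adjusted p = 0.0162). Divergent spaces make up 36.9% of the intergenic bases of X and 33.9% of those of the autosomes, again the opposite order.

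Promoter peaks had much the same signals on X and on autosomes. Their median was 63.7 on X and 64.5 on autosomes, while peaks in no promoter window had medians of 68.4 and 63.0. In the highest 10% of promoter signals were 10 of 98 X peaks and 36 of 389 autosomal ones (Fisher's exact test, adjusted p = 0.9591). Among peaks in no promoter window the corresponding shares were 19.01% and 7.12% (Fisher's exact test, adjusted p = 0.001245). Whether promoter and other peaks differ in this was not tested. Of the 20 strongest optimal peaks 12 X peaks and 3 autosomal ones lay in no promoter window.

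The strongest promoter peak on X was 732 bp upstream of nspc-17, a member of a nematode-specific peptide family. Its signal was 242.1 in the pooled list, 112.8 in replicate 1 and 128.6 in replicate 2, at rank 12 in both. The peak 438 bp upstream of epn-1, which encodes an epsin of clathrin-mediated endocytosis, had signals of 75.8 and 83.1 in the replicates and ranks of 42 and 40. The peak at ins-39, an insulin-like peptide gene, was 641 bp upstream with signals of 83.6 and 74.3. At ain-1, which encodes a GW182-family partner of the miRNA machinery, a peak 885 bp upstream had signals of 69.6 and 85.2. All 4 ranked within the 60 strongest of each replicate.

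The next promoter peaks were at nipi-3, a Tribbles-like pseudokinase gene, with a pooled signal of 140.3, and at serp-1.1, with 138.2. A single summit lay in the promoter windows of D1005.10, D1005.4 and dhs-25, a short-chain dehydrogenase gene, with ranks of 161 in replicate 1 and 29 in replicate 2. T24D3.2 (120.6), puf-9 (118.3) and sma-9 (109.6) completed the 10 strongest by pooled signal. puf-9 encodes a Pumilio-family RNA-binding protein and sma-9 a Schnurri-like factor of body size signalling, and the sma-9 summit lay in an intron. A summit inside the windows of at least 2 genes was found for 9 of 98 X promoter peaks (9.18%) and 98 of 389 autosomal ones (25.2%; Fisher's exact test, adjusted p = 0.0008246 over the 7 comparisons chosen after the data were seen). How often promoter windows overlap on X and on autosomes was not counted, so these shares have no background. The longer intergenic spaces of X, with a median of 1792.5 bp against 818 bp, move in the same direction, and their part was not tested.

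On X, 105 of 2731 protein-coding genes (3.85%) had a summit in their promoter window, against 2.82% of all protein-coding genes and 2.66% of autosomal ones. Gene classes were counted by symbol and are descriptions without a test. Of 23 X-linked nuclear hormone receptor genes 4 had such a summit, namely nhr-48 (pooled signal 83.9), nhr-32 (82.1), nhr-3 (55.6) and nhr-1 (50.6). A total of 9 nhr genes were the nearest start of an X peak, including nhr-14 with a summit in its own intron and a signal of 145.9. Of 14 detoxification genes gst-42 (72.4) and ugt-50 (51.5) had a promoter summit. Of 6 acyl-CoA genes acs-17 (51.0) had one, and acdh-7 was the nearest start of another peak. Outside these classes was pccb-1, which encodes a subunit of propionyl-CoA carboxylase, an enzyme of the B12-dependent route of propionate breakdown. This gene had a summit in an intron, 234 bp upstream of its nearest transcript start. The pooled signal there was 56.2, with ranks of 648 and 1246 in replicates 1 and 2, and the gene was named after its value was seen. The vacuolar ATPase gene vha-12 (82.3), the chaperone gene hsp-3 (75.4) and the ribosomal protein gene rpl-11.2 (75.2) were the members with a promoter summit in classes of 3, 3 and 2 X-linked genes.

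None of 18 homeobox ceh genes, 28 chemoreceptor genes or 3 C-type lectin genes had a promoter summit. Of 34 neuropeptide and insulin genes ins-39 alone had one. Among 33 genes with collagen-type symbols there were 2, col-176 (62.7) and dpy-23 (99.3), but dpy-23 encodes a subunit of a clathrin adaptor and not a collagen. The fatty acid genes named fat and elo have no member on X. These counts, zeros included, are small, and no class was tested against the 3.85% of all X genes.

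Most X peaks had the fixed width of the list, 424 bp in 211 of 240 (87.9%). Of the others 28 were narrower, from 106 to 406 bp, and 1 was 792 bp wide. Narrow peaks were 11.7% of X peaks and 5.31% of autosomal peaks, an odds ratio of 2.36 (Fisher's exact test, adjusted p = 0.01186). They were the strong ones, with a median pooled signal of 187.1 on X against 63.3 at the fixed width, and 17 of the 20 strongest X peaks were narrow. Of the 28 narrow X peaks 21 lay in no promoter window and 8 held a MEX core. The difference between X and autosomes was lost, by the same exact test, without the 20 strongest peaks (6.61% against 4.42%, adjusted p = 0.3778) and without the MEX peaks (8.73% against 5.31%, adjusted p = 0.1463).

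The MEX core was found beside X summits and beside no autosomal summit. It lay within 50 bp of 11 X summits (4.58%, 95% interval 2.31 to 8.05%) and of none of the 754 autosomal summits (upper bound 0.488%; Fisher's exact test, adjusted p = 2.588e-06). Within 100 bp of the summit the shares were 6.67% on X and 0.265% on autosomes (Fisher's exact test, adjusted p = 1.616e-07). A sequence within 1 mismatch of the core was found at 27 X summits (11.3%) and 35 autosomal summits (4.64%; Fisher's exact test, adjusted p = 0.01122). The 27 include the 11 X summits with the exact core, so this is not a separate result. Whether summits with exactly 1 mismatch differ was not tested. In pooled regions that were not optimal the shares within 1 mismatch were 2.33% on X and 1.99% on autosomes. Without the 20 strongest optimal peaks 4 of 227 X peaks and 0 of 747 autosomal peaks held the core (Fisher's exact test, adjusted p = 0.05492). The call was thus lost with fewer cores left to count, while the peaks that still held the core were all on X.

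The core is more frequent on X, but most of its copies had no peak. X holds 81 copies (4.57 per Mb) and the autosomes 233 (2.82 per Mb). Of the X copies 13 (16.0%) lay within 50 bp of an optimal summit and 16 (19.8%) within 50 bp of any pooled summit. Of the autosomal copies 0 were at an optimal summit and 9 (3.86%) at a pooled one. In pooled regions that were not optimal the core was at 3 of 3515 X summits (0.0854%) and 8 of 12936 autosomal summits (0.0618%).

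The 11 X peaks with the core had a higher median signal and a longer median distance to a transcript start than the other X peaks. Their median pooled signal was 228.7 (range 58.7 to 331.6), against 64.7 for the other 229 X peaks. Of the 11, 8 were among the 20 strongest X peaks, 10 were among the strongest regions of both replicates and 2 were in promoter windows, while 2 lay in introns. Their median distance to a start was 3409 bp, against 1022 bp for the other X peaks. The nearest core was a median of 9.5 bp from the summit. Besides the 5 windows printed above, the core lay at the peaks nearest to gtr-1 (signal 228.7), Y41G9A.17 (225.2), ins-39 (158.6), T24D8.6 (98.2), col-185 (72.7) and dpy-23 (58.7). No list of rex sites was used here, so whether these peaks are rex sites was not tested.

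A screen of all 2080 6-mers, with both strands joined, gave 1 call, 0.0481% of those tested. It was GCAGGG, counted on both strands, which is part of the MEX core, at 22 X summits (9.17%) and 11 autosomal summits (1.46%; Fisher's exact test, adjusted p = 0.0003477). In pooled regions that were not optimal it was at 1.39% of X and 1.09% of autosomal summits. Of the 22 X peaks with this 6-mer 11 held the whole core, and 11 of the 22 were among the 20 strongest X peaks. A sequence within 1 mismatch of the core was present in 14 of those 20. The screen gave 0 calls without the MEX peaks and 0 without the 20 strongest peaks. Leaving out the MEX peaks removes 11 of the 22 X peaks with the 6-mer by definition and no autosomal peak, so fewer were left to count.

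Shares of 2 motifs of other factors did not differ between X and autosomes past the threshold. The GATA element TGATAA, bound by GATA factors of the worm gut among others, lay within 50 bp of 46 X summits (19.2%) and 134 autosomal summits (17.8%; Fisher's exact test on both strands, adjusted p = 0.7052, difference 1.40 points). In pooled regions that were not optimal its share was 14.3% on X and 13.3% on autosomes. The E-box CACGTG, a palindrome bound by basic helix-loop-helix factors, was at 22 X summits (9.17%) and 57 autosomal summits (7.56%; Fisher's exact test, adjusted p = 0.5237, difference 1.61 points). In the other pooled regions it was at 2.33% on X and 2.66% on autosomes. The GC content within 50 bp of the summit was above the median of all peaks at 53.3% of X peaks and 45.9% of autosomal peaks (Fisher's exact test, adjusted p = 0.08645), with medians of 45.5% and 43.6%.

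**Figure D4:**
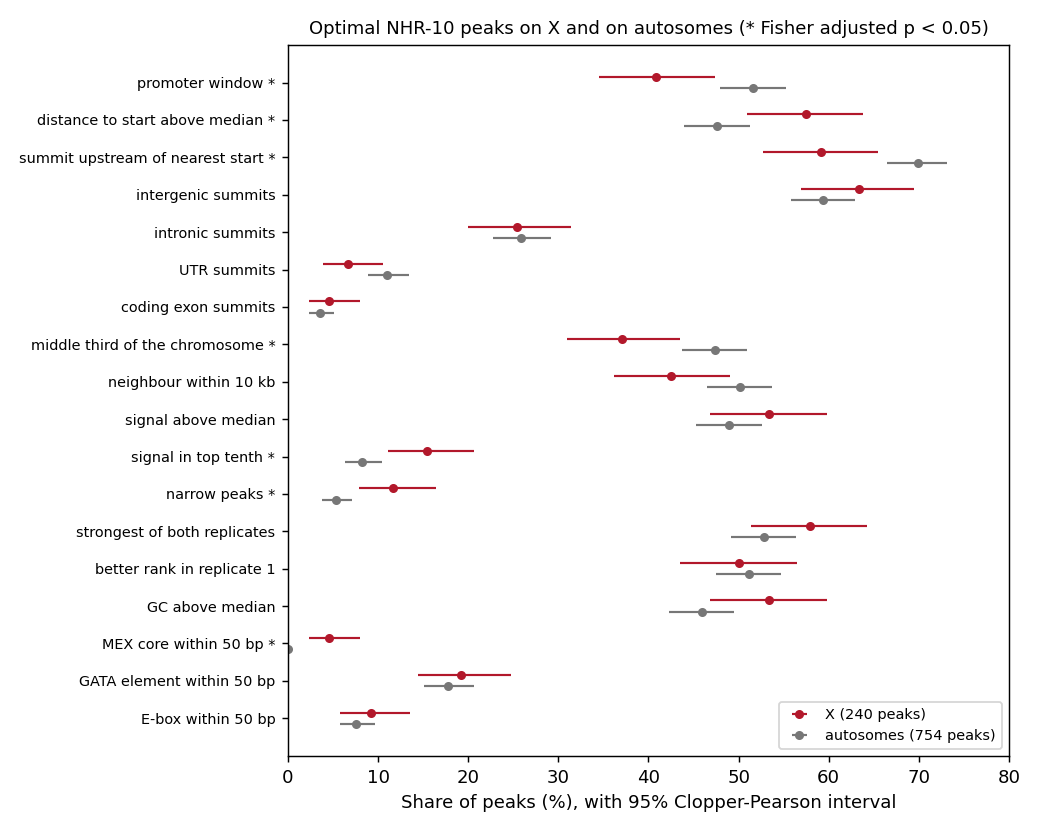
Share of optimal peaks with each property (x axis, %) on X (240 peaks) and on the autosomes (754 peaks), as points with 95% Clopper-Pearson intervals. Asterisks mark Fisher's exact tests with an adjusted p under 0.05, among them the promoter window at 40.8% against 51.6% and the MEX core at 4.58% against 0.

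tRNA genes adjoined X peaks more often than autosomal ones, in a comparison chosen after the data were seen. Within 500 bp of a tRNA gene lay 15 X summits (6.25%) and 8 autosomal summits (1.06%; Fisher's exact test, adjusted p = 0.000194). X holds 276 of the annotated tRNA genes, 45.1% of them, and the part of this in the difference was not tested. The 15 peaks had a median pooled signal of 55.4, from 49.8 up to the 254.1 of the xol-1 site, and 7 were among the strongest of both replicates. snoRNA genes showed the other order, with 2 X summits (0.833%) and 31 autosomal summits (4.11%) within 500 bp, which was not tested. How snoRNA and miRNA genes divide between X and the autosomes was not counted here, so these summit counts have no background. Within the same distance of miRNA genes were 3 X summits (1.25%) and 9 autosomal summits (1.19%). Those on X were at cel-mir-239b and at the cluster of cel-mir-54, cel-mir-55, cel-mir-55b and cel-mir-56.

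Along X the peaks covered the whole chromosome. The 17 full bins of 1 Mb held 7 to 24 peaks, with a median of 14. The seventh bin had the most, 24, and the fourth the fewest, 7. The bin from 16 to 17 Mb had 16 peaks, of which 1 was in a promoter window, and 108 protein-coding genes, the fewest of the full bins. Across the 17 bins the Spearman correlation of peak number was 0.40 with the number of genes and 0.51 with the number of pooled regions. MEX peaks occurred in 9 of the 18 bins, with at most 2 in a bin.

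**Figure D5:**
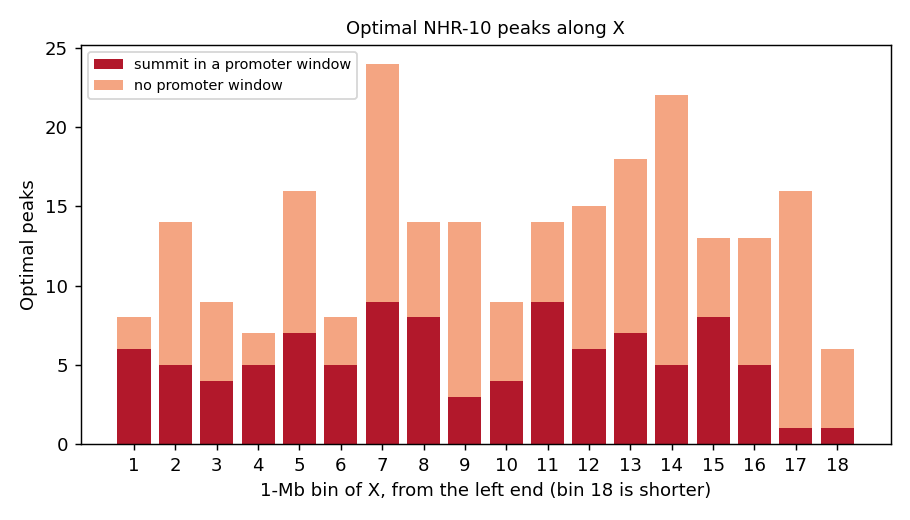
Number of optimal peaks (y axis) in each 1-Mb bin along X from its left end (x axis), split by whether the summit lay in a promoter window. The full bins hold 7 to 24 peaks, and the bin from 16 to 17 Mb has 1 promoter peak among 16.

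Peaks were less central on X than on the autosomes. Split by length into 3 equal parts, its left, middle and right part held 61 (25.4%), 89 (37.1%) and 90 (37.5%) peaks, while the autosomes held 25.1%, 47.3% and 27.6% of theirs. The share in the middle part was lower on X (Fisher's exact test, adjusted p = 0.0177), and below the 40.5% to 52.6% of the 5 autosomes. The genes of X were spread as 31.8%, 35.8% and 32.4%, and autosomal genes as 31.1%, 38.2% and 30.7%. By the same exact test the difference stayed negative but missed the threshold under 4 alternatives, with adjusted p from 0.05358 to 0.0724.

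Neighbouring X summits were a median of 38998 bp apart (quartiles 10856.5 and 109258, 239 gaps), and autosomal ones 49262 bp (quartiles 4827 and 151603, 749 gaps). Gaps under 2 kb made up 7.95% on X and 13.8% on autosomes, which was not tested. Another optimal summit within 10 kb was found for 102 X peaks (42.5%) and 378 autosomal peaks (50.1%; Fisher's exact test, adjusted p = 0.08645). At 5 kb the shares were 28.3% and 41.6% (Fisher's exact test, adjusted p = 0.002329). The widest gap on X was 695959 bp, between a peak nearest to spc-1, the alpha spectrin gene (summit at 3128040, signal 68.6), and a peak nearest to fkh-9, a forkhead factor gene (summit at 3823999, signal 58.5).

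By summits joined within 10 kb, 138 X peaks stood alone, 66 formed 33 pairs, 21 formed 7 groups of 3 and 15 formed 3 groups of 5. The closest 3 summits spanned 1622 bp at mdl-1, a Mad-like basic helix-loop-helix factor gene. The first lay 22 bp from the mdl-1 start with a pooled signal of 92.1 and ranks of 124 and 314 in replicates 1 and 2. The second, with a pooled signal of 108.1, was in an mdl-1 intron, and the third had 95.9. With their neighbours at R03E9.2 and abts-4 they made a group of 5 over 12542 bp, with pooled signals of 92.1 to 113.2. Another group of 5 spanned 12216 bp around mxl-3, a Max-like factor gene that restrains lysosomal lipid breakdown in fed worms, and towards C49F8.15, with pooled signals of 50.6 to 138.7. Its member at rank 44 in replicate 2 ranked 327 in replicate 1. The third group spanned 14741 bp from the start of got-2.2, an aspartate aminotransferase gene, towards W05H9.4, with signals of 51.1 to 96.3.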

How the data were processed

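ChIP-seq peak lists from 1 group of 2 biological replicates were used, with group and replicate numbers from the labels. Per the notes deposited with the files, the authors made each list in narrowPeak format with 1 control alignment, for each replicate, for both together and, as optimal, after an IDR threshold. The deposited signal value of each region was given by the authors, on a scale that is not stated, and was compared within a list only. The caller, the aligner and the IDR cutoff were not given in the sources used here. The lists hold no reads, so depth and the precision it gives are unknown. The ce11 lists held 21319, 22317 and 17445 unique regions for replicate 1, replicate 2 and both (2 repeats were counted once). The 994 optimal peaks were the pooled regions of highest signal, 49.64 and above.

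Positions are 1-based in ce11. Genes came from Ensembl release 115 and sequence from RefSeq WBcel235. A region counted as shared at an overlap of at least 1 bp. Summits were classed as coding exon, UTR, intron or intergenic by protein-coding genes. X and autosomal peaks were compared with two-sided Fisher's exact tests, with Benjamini-Hochberg adjustment over 19 comparisons, over 2080 6-mers and over 7 comparisons added after seeing the data, at a threshold of 0.05. The 6-mer screen was tested on simulated data. Python 3.11.15, SciPy 1.17.1 and pandas 2.3.3 were used. Named were the 20 strongest X peaks, the 10 strongest in promoter windows, the largest rank differences, the widest gap and closest group, peaks at the edge of the list, and class members with promoter peaks. The 3 groups of 5 and the peaks with a MEX core were chosen after their values were seen. The members and lists were chosen with earlier results of these data known. Alternatives covered the window, the build, the strongest peaks, support in both replicates, each replicate alone and 1 peak per 10 kb.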

Additional observations from a re-analysis of the deposited data

How the results depend on the processing

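Of 170 recalculations 130 kept direction and side of the threshold, and the X share against sequence length did so in all 9 of its own. Differences that missed the threshold both times count among the 130. A call was lost in 23 of the 170, among them 5 of 8 for distance and 4 of 7 for the middle of the chromosome. Values here are X minus autosomes in percentage points, and leaving out the 20 strongest peaks or the MEX peaks was chosen after seeing the data. Calls lost without the 20 strongest peaks were MEX core 1.762, distance 7.754, middle of the chromosome -10.08 and narrow peaks 2.19. Also lost were pooled regions 1.053, promoter window -8.808, highest signals 3.098 and upstream summits -9.393. With all peaks these values were, in the same order, 4.583, 9.887, -10.26, 6.362, 1.341, -10.76, 7.194 and -10.73. Every one of these differences kept its direction. Without the MEX peaks the values were 8.454 for distance, -9.793 for the middle, 3.429 for narrow peaks, 1.048 for pooled regions, -9.67 for the promoter window, 5.79 for the highest signals and -10.51 for upstream summits, and the smallest p of the adjustment also left with them. Calls were also lost with 1 peak per 10 kb (distance 10.13, middle -9.317), with peaks strongest in both replicates (distance 11.29), with starts of all biotypes (distance 8.239), with the upper 497 peaks (middle -11.97), with a window of 500 bp (promoter -7.06) and within promoter peaks (highest signals 0.9496). A neighbour within 5 kb passed, at -13.31. The 6-mer screen gave 2 calls with 1 peak per 10 kb, 2 with peaks strongest in both replicates, and 0 without the MEX peaks or the 20 strongest. With 1 replicate left out it gave 1 to 4 calls, upstream summits ranged from -11.83 to -7.828, GATA from -2.812 to -1.484, better rank from -4.746 to 4.449, coding exons from -1.09 to 0.5434 and introns from -2.261 to 1.696. Differences that had missed the threshold changed sign for GATA (-0.6941 within 100 bp, -1.189 with peaks strongest in both replicates, -2.676 in the upper 497), introns (2.534 with 1 peak per 10 kb) and signal above the median (-0.2762 with 1 peak per 10 kb, -1.92 within promoter peaks). The causes were not tested. With 1 peak per 10 kb no neighbour within 10 kb can exist, and without MEX peaks the core cannot be counted, so those gave no value. No paired analysis was possible because there was 1 group. Depth limits could not be given without reads.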
